A study of Oryza sativa Japonica Group with 6 samples.

Results

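The protein disulfide isomerases (PDIs) of rice were followed in the endosperm, the starch- and protein-filled storage tissue of the grain, in plants kept at high or normal temperature. The family was defined by 8 locus identifiers, PDIL1-1 to PDIL1-5 and PDIL2-1 to PDIL2-3. A row was found for 7 of them among 29907 mRNA gene rows, and PDIL1-5 (LOC_Os06g06790) is not analysed here. Endosperm of the Japonica cultivar NingJing1 was taken at 10 days after pollination. Field-raised plants had been placed in growth chambers at booting, the stage before flowering. The high temperature group (n = 3 samples) had days of 36 °C with nights of 33 °C, and the normal temperature group (n = 3 samples) had days of 28 °C with nights of 25 °C. All samples share the cultivar, the tissue label and the time after pollination. Whether grains of both groups had reached the same developmental stage was not tested. RNA depleted of ribosomal RNA was sequenced, and levels were deposited as FPKM, fragment numbers corrected for transcript length and library total, so that levels can be compared between genes.

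PDIs are thioredoxin-fold enzymes of the endoplasmic reticulum (ER) that form, break and rearrange disulfide bonds in newly made secretory proteins. Rice endosperm loads its ER with storage proteins that need such bonds: proglutelins, which travel on to vacuolar protein bodies, and cysteine-rich prolamins, which stay in ER-derived protein bodies. PDIL1-1 is the classical isoform, with a pair of catalytic domains around a pair of non-catalytic ones. Rice mutants without it (esp2) accumulate proglutelin. PDIL2-3 belongs to the P5-like branch of the family and is known in rice to lie at the surface of the prolamin bodies and to help place a cysteine-rich prolamin there.

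The levels of the 7 measured members spanned 3 orders of magnitude and kept 1 order in all 6 samples: PDIL1-1, PDIL1-4, PDIL2-3, PDIL2-1, PDIL2-2, PDIL1-2 and PDIL1-3. In each temperature group, neighbours in that order did not overlap, which held for 12 of 12 neighbouring pairs. PDIL1-1 alone made up 66.9% to 77.9% of the summed FPKM of the members. PDIL1-1, PDIL1-4 and PDIL2-3 together made up 93.7% to 95.8%. PDIL1-1 had a mean FPKM above 99.7% of the 17050 mRNA genes tested in either group, while PDIL1-2 and PDIL1-3 stood near the low end of them.

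**Figure D1:**
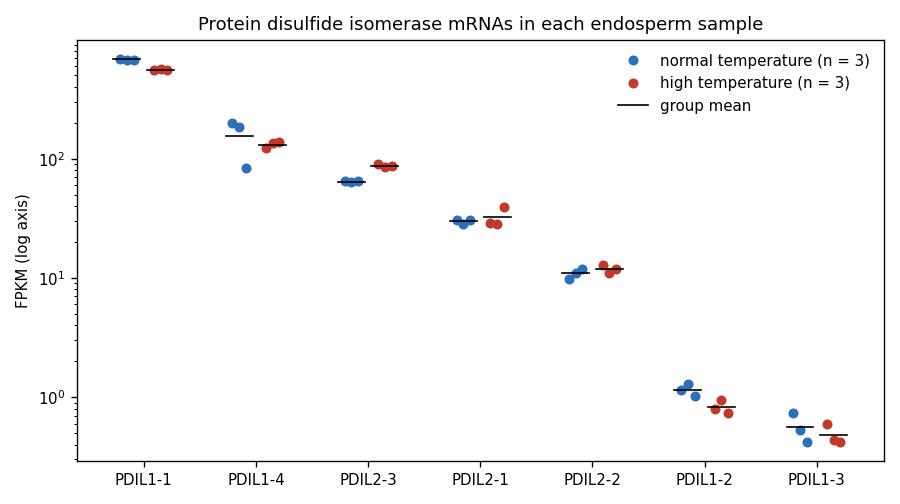
FPKM of the 7 measured members in each sample, on a log axis, with normal temperature in blue and high temperature in red and a line at each group mean (n = 3 per group). PDIL1-1 leads in every sample, and normal temperature sample 3 of PDIL1-4, at 82.8 FPKM, lies apart from the other two at 197 and 186.

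Which members differ in abundance between the temperatures was asked of each gene. On the deposited values, at high temperature, the mRNA of PDIL1-1 fell (a call absent after quantile normalization) and that of PDIL2-3 rose, and 5 members did not pass the test (limma on log2(FPKM + 1), adjusted p under 0.05 over all 17050 genes). These 2 calls among 7 members compare with 35.8% of all tested genes called in either direction, 13.0% higher and 22.8% lower, so the share of members called was not above the background. The split of calls depended on scaling: of all called genes, 36.4% were higher on the deposited values and 47.1% once the 100 most abundant genes were left out of the library total. The median log2 fold change was -0.07 over the members and -0.08 over all tested genes. In bulk endosperm, fewer cells of a type and less RNA per cell cannot be told apart.

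PDIL1-1 (LOC_Os11g09280), the proglutelin-folding isoform, had levels of 558, 562 and 559 FPKM in the high temperature samples and 681, 678 and 679 FPKM in the normal temperature samples. The samples of each group lay close together, and every high temperature sample was below every normal temperature sample. The means were 559.8 ± 1.66 and 679.5 ± 1.56 FPKM (SD, n = 3), a ratio of 0.824. The log2 fold change was -0.28 with a standard error of 0.02 (limma, Benjamini-Hochberg adjusted p = 0.00067). It was -0.21 after trimmed-mean scaling and -0.18 with the 100 most abundant genes left out of the total, but quantile normalization gave 0.01 (limma adjusted p = 0.81).

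PDIL2-3 (LOC_Os09g27830), the P5-like isoform of the prolamin bodies, moved the other way. Its level was 89.85, 85.7 and 87.2 FPKM in high temperature and 64.5, 63.3 and 65.1 FPKM in normal temperature. All high temperature samples were above all normal temperature samples. The means were 87.6 ± 2.12 and 64.3 ± 0.909 FPKM (SD, n = 3), 1.36 times as high at high temperature. The log2 fold change was 0.44 with a standard error of 0.04 (limma adjusted p = 0.00075), and it lay between 0.42 and 0.54 under the 14 alternatives run.

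Because a ratio within a sample does not depend on a scaling factor between samples, PDIL2-3 was also set against PDIL1-1 directly. There were 6.22, 6.56 and 6.41 FPKM of PDIL1-1 per FPKM of PDIL2-3 in the high temperature samples and 10.6, 10.7 and 10.4 in the normal temperature samples. The groups did not overlap. On the log2(FPKM + 1) scale the ratio of PDIL2-3 to PDIL1-1 was higher by 0.72 at high temperature, or 1.65-fold on the deposited values (exact permutation test over samples, two-sided, p = 0.1, the smallest p that 3 against 3 samples can give). This pair was chosen with the direction of each gene known.

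**Figure D2:**
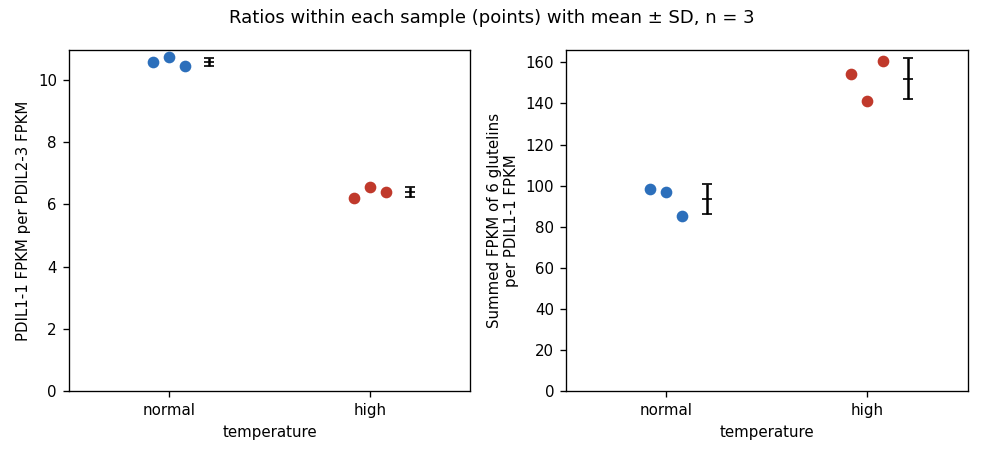
Left, FPKM of PDIL1-1 per FPKM of PDIL2-3 in each sample; right, summed FPKM of 6 glutelin genes per FPKM of PDIL1-1. Points are samples and black marks are mean ± SD (n = 3); in both panels the groups are apart, with 6.22 to 6.56 against 10.4 to 10.7 on the left and 141 to 161 against 85.2 to 98.4 on the right.

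PDIL1-1 was also set beside glutelins, its known clients. The summed level of 6 glutelin genes (GLUA1, GLUA2, GLUA3, GLUB4, GLUB5 and GLUD1) was 154, 141 and 161 times that of PDIL1-1 in the high temperature samples and 98.4, 97.0 and 85.2 times in the normal temperature samples. There was thus more glutelin mRNA per PDIL1-1 mRNA in every high temperature sample, 152 ± 9.84 against 93.6 ± 7.28 (SD, n = 3, no test). The 6 glutelin genes did not change alike. GLUB4, GLUB5 and GLUD1 had log2 fold changes of 1.07, 1.06 and 0.97. Those of GLUA2 and GLUA3 were 0.11 and 0.34, and GLUA1, at -0.12, was not called. GLUA1 varied most within groups, and without it the ratio was 123 to 126 against 68.9 to 69.9. Only glutelin genes named in the RefSeq reference were summed. This left out LOC_Os02g15169 and LOC_Os02g25640, which were also listed as glutelins. Prolamins were not set beside PDIL2-3. Glutelin genes have close copies, and how reads were divided among them was not tested. The ratio was chosen after the values had been seen.

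PDIL1-4 (LOC_Os02g01010) was the second most abundant member. It has the classical domain order but belongs to another branch than PDIL1-1, under which the reference also lists it as PDIL2-1. Its level was 122, 135 and 138 FPKM in high temperature and 197, 186 and 82.8 FPKM in normal temperature. Normal temperature samples 1 and 2 were above all high temperature samples and sample 3 was below them, so the groups overlapped. With all samples the log2 fold change was -0.14, with a 95% interval of -1.02 to 0.74 (limma adjusted p = 0.79). Without normal temperature sample 3 it was -0.54 (limma adjusted p = 0.0099), and 2 members rather than 1 were then lower. Without normal temperature sample 1 or 2 it was 0.08 or 0.04.

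The same sample stood apart for bZIP50. This gene, whose mRNA is spliced by IRE1 under ER stress to give an active transcription factor, was at 7.74 and 7.27 FPKM in normal temperature samples 1 and 2 and at 16.1 in sample 3. It was at 18.9, 19.2 and 19.96 FPKM in high temperature. For PDIL1-4 and bZIP50, normal temperature sample 3 thus lay away from its group, towards or past the high temperature samples. For PDIL1-1 and PDIL2-3 it lay with its group. Other normal temperature samples stood apart for other genes. Sample 2 was at 0.33 FPKM for bZIP39, against 11.97 to 13.2 FPKM in all other samples. Sample 1 was far below samples 2 and 3 for LOC_Os06g31070, a listed storage protein gene. All these genes were picked after their values were seen, so they cannot show that sample 3 as a whole differs from its group.

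**Figure D3:**
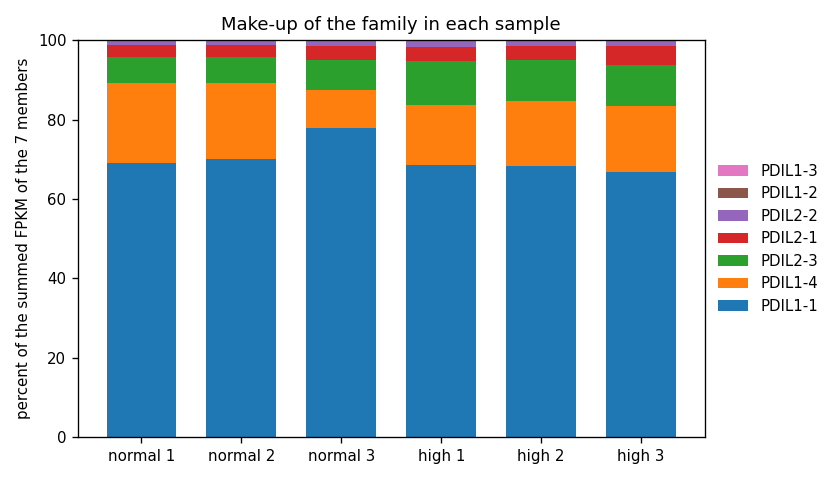
Share of each member in the summed FPKM of the 7 members, as a stacked percentage for each sample. The PDIL2-3 segment is 6.54% to 7.47% in normal temperature and 10.4% to 11.04% in high temperature, and the PDIL1-4 segment narrows to 9.50% in normal temperature sample 3.

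The make-up of the family therefore shifted towards PDIL2-3. Its share of the summed FPKM was 10.6% ± 0.361 in high and 6.85% ± 0.537 in normal temperature (SD, n = 3). The share of PDIL1-1 was 68.6%, 68.3% and 66.9% in high and 69.1%, 70.0% and 77.9% in normal temperature, where the highest value is again sample 3, in which PDIL1-4 was low. The summed FPKM of the members was 814, 823 and 836 in high and 985, 969 and 871 in normal temperature. The difference between the group means, high minus normal, was -118 FPKM on the deposited values, -72.3 FPKM after trimmed-mean scaling and -55.7 FPKM with the 100 most abundant genes left out of the total. Sums and shares over the members are descriptions without a test.

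PDIL2-1 and PDIL2-2 form another branch, in which the catalytic domains lie next to each other and are followed by a helical domain; the reference also lists them as PDIL4-1 and PDIL4-2. PDIL2-1 (LOC_Os05g06430) was at 28.8, 28.4 and 39.4 FPKM at high temperature and 30.5, 28.4 and 30.8 FPKM at normal temperature. High temperature sample 3 was above all others, and the remaining values of the groups overlapped. The log2 fold change was 0.09 (95% interval -0.26 to 0.43, limma adjusted p = 0.67), and -0.06 without that sample. PDIL2-2 (LOC_Os01g23740) was at 12.84, 10.96 and 11.87 FPKM at high temperature and 9.87, 10.94 and 11.95 FPKM at normal temperature. The groups overlapped, and the log2 fold change was 0.11 (95% interval -0.11 to 0.34, limma adjusted p = 0.39).

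PDIL1-2 and PDIL1-3, which share the branch of PDIL1-1, were barely expressed. PDIL1-2 (LOC_Os04g35600) was at 0.79, 0.94 and 0.74 FPKM at high temperature and 1.15, 1.28 and 1.02 FPKM at normal temperature. Its groups did not overlap, but the log2 fold change of -0.24 did not pass (limma adjusted p = 0.077). It passed after quantile normalization, at -0.28 (limma adjusted p = 0.044). PDIL1-3 (LOC_Os02g34940) was at 0.59, 0.44 and 0.42 FPKM at high temperature and 0.74, 0.53 and 0.42 FPKM at normal temperature, with overlapping groups and a log2 fold change of -0.07 (limma adjusted p = 0.64). Its mean of 0.523 FPKM was just above the minimum of 0.5 for testing. At such levels a fold change on log2(FPKM + 1) understates the change. In all, groups did not overlap for 3 of the 7 members, against 51.7% of all tested genes.

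**Figure D4:**
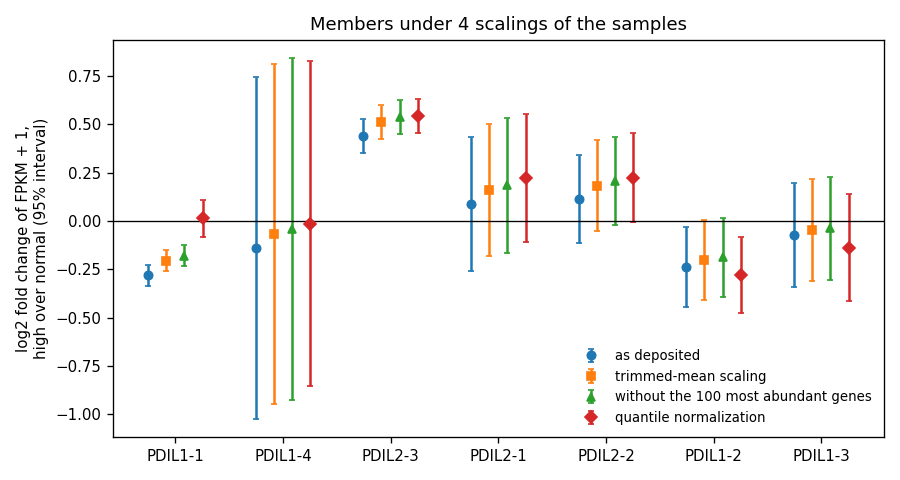
Log2 fold change of FPKM + 1, high over normal temperature, of each member under 4 scalings of the samples, with 95% intervals not adjusted for the number of genes. PDIL2-3 is above 0 under each, while PDIL1-1 is below 0 under 3 of them and at 0.01 after quantile normalization.

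The 4 other PDI-like genes of the list, PDIL5-1 to PDIL5-4, carry fewer thioredoxin domains than the classical isoform. PDIL5-3 (LOC_Os02g34530) fell, from 6.06, 6.18 and 6 FPKM in normal to 4.81, 4.21 and 4.54 FPKM in high temperature, without overlap. Its log2 fold change was -0.36 with a standard error of 0.06 (limma adjusted p = 0.0073). The other 3 did not pass, with log2 fold changes between -0.12 and 0.01, and all 4 had mean levels between 5.30 and 12.2 FPKM. The median log2 fold change of these 4 genes was -0.11.

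Genes of ER folding were counted from a list of 15 genes, the ER folding list. It also holds the stress sensor IRE1 and the stress transcription factors bZIP39, bZIP50 and bZIP60, which are not folding partners of the PDIs. Of the 15 genes, 12 had a mean of at least 0.5 FPKM. Of these 12, 7 were higher, 1 was lower and 4 did not pass (limma, adjusted p under 0.05), with a median log2 fold change of 0.33. The share called was 66.7%, against 35.8% of all tested genes. The list was chosen with earlier results of these data known, and BIP4 passed the filter through its high temperature samples alone. This count is therefore a description. BIP2, at 0.20 to 0.35 FPKM at high temperature and at most 0.03 in normal temperature, was among the 3 genes under the filter. BIP1 (LOC_Os02g02410), the main ER chaperone of the HSP70 type in endosperm, was at 594, 401 and 415 FPKM at high temperature and 295, 275 and 280.1 FPKM at normal temperature, a log2 fold change of 0.71 (limma adjusted p = 0.022). High temperature sample 1 was well above the other two, and the removal of any of the 3 normal temperature samples ended the call (limma adjusted p between 0.056 and 0.067).

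Calreticulin CRO1 (LOC_Os07g14270), a lectin chaperone of glycoproteins, was at 84.2, 84.5 and 86.3 FPKM at high temperature and 70.9, 70.5 and 65.4 FPKM at normal temperature, a log2 fold change of 0.30 (limma adjusted p = 0.0053). The membrane-bound stress transcription factor bZIP60 rose by 0.17 on the log2 scale (limma adjusted p = 0.020), a call that ended on removal of sample 2 of either temperature or of high temperature sample 3 (limma adjusted p between 0.054 and 0.058). The ER stress sensor IRE1 (LOC_Os07g28820) was the gene that fell. It was at 6.60, 7.12 and 7.07 FPKM at high temperature and 9.15, 8.03 and 8.38 FPKM at normal temperature, and its log2 fold change was -0.26 (limma adjusted p = 0.028). That call was lost under 9 of 14 alternatives, among them all 3 rescalings and the removal of any sample other than normal temperature sample 2, with limma adjusted p between 0.059 and 0.12.

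BIP4, bZIP39 and bZIP50 did not pass. bZIP50 had a log2 fold change of 0.92 (limma adjusted p = 0.062), and passed without normal temperature sample 3 (1.26, limma adjusted p = 0.0012), after quantile normalization (1.03, limma adjusted p = 0.0496) and with the 100 most abundant genes left out of the total (1.02, limma adjusted p = 0.0489). The levels of BIP4 at high temperature were 1.49, 1.32 and 0 FPKM, against 0.11, 0.06 and 0.04 FPKM at normal temperature. BIP4 reached the minimum mean for testing only through high temperature samples 1 and 2, so no test of it is read as a rise. bZIP39 was between 11.97 and 13.2 FPKM in every sample but normal temperature sample 2, at 0.33 FPKM. The other 5 tested genes of the list carry no name in the reference used here; 4 of them rose, with log2 fold changes between 0.22 and 1.59, and none fell.

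**Figure D5:**
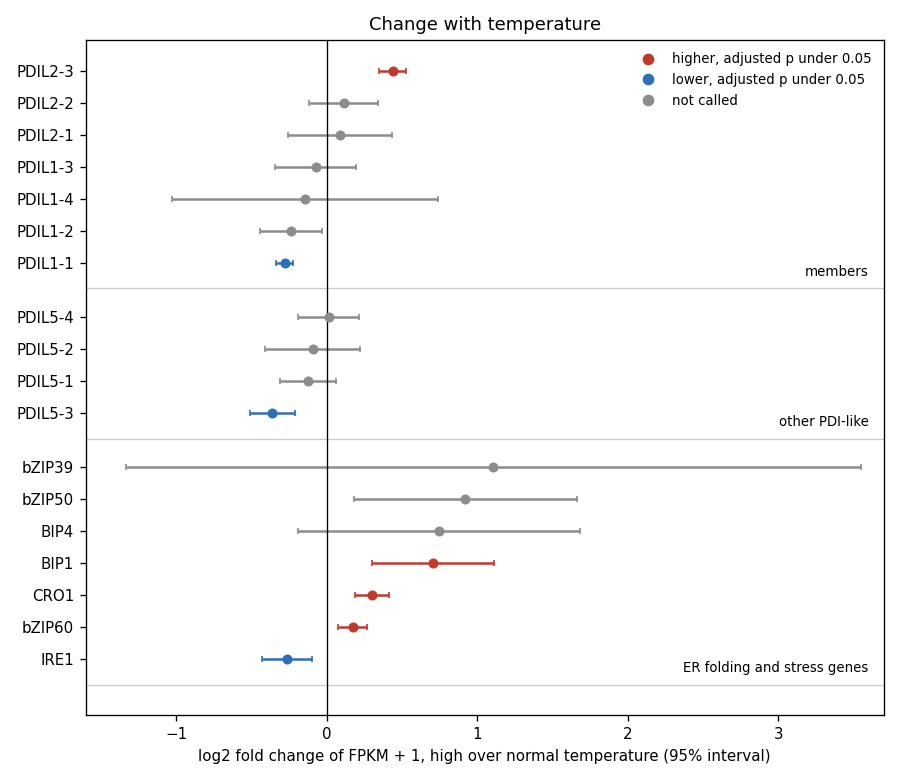
Log2 fold change of FPKM + 1, high over normal temperature, with 95% intervals not adjusted for the number of genes. Shown are the 7 members, the 4 other PDI-like genes and the 7 tested ER folding and stress genes named in the reference. PDIL2-3, BIP1, CRO1 and bZIP60 were called higher and PDIL1-1, PDIL5-3 and IRE1 lower on the deposited values; PDIL1-1 was at 0.01 and not called after quantile normalization.

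Among the other members and these lists, 22 genes in all, the patterns most like PDIL1-1 over the 6 samples were those of PDIL5-3 (Pearson r = 0.96 of log2(FPKM + 1)) and IRE1 (r = 0.92). The patterns most like PDIL2-3 were those of LOC_Os03g52340 (r = 0.99) and LOC_Os08g34190 (r = 0.99). Both loci belong to the ER folding list without a name in the reference, and rose by 0.36 and 0.30 on the log2 scale. The 6 points are 3 samples at each temperature, so these values mostly restate the difference between the groups, and they share libraries.

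The tissue label was checked against markers. The 3 endosperm markers were above 0 in every sample. Of these, 1 storage protein marker was called higher and 2 were called lower, among them the starch synthase GBSS1, with a mean of 493 FPKM at high and 1380.0 FPKM at normal temperature (log2 fold change -1.49, limma adjusted p = 0.00019). Their sum, most of it from the marker that rose, was 13216 to 13736 FPKM at high temperature and 8472 to 8845 FPKM in normal temperature. The 3 markers of embryo and aleurone were also above 0 in every sample. They summed to 805 to 840.2 FPKM at high temperature and 114 to 611 FPKM in normal temperature. Of them, 2 were called higher, RAB21 and VP1, with log2 fold changes of 2.42 and 0.15. The remaining marker, LOC_Os04g46200, was not called (limma adjusted p = 0.11). It was at 569 FPKM in normal temperature sample 2, against 112 and 74.3 FPKM in samples 1 and 3, which widened the range of the sum. The green pericarp marker CAB2R was at 33.3 to 38.9 FPKM at high temperature and 70.7 to 78.0 FPKM in normal temperature. These markers moved in the same samples as PDIL1-1 and PDIL2-3, and their part in those results was not tested. The FPKM of all rows summed to between 365035 and 380742 per sample, and sequencing depth is unknown. The labels do not say whether samples of a group are from separate plants; the p-values then reflect only how far these samples spread, which may be technical.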

How the data were processed

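Per the file headers, the authors deposited FPKM with 1 column per sample, to 2 decimals. StringTie 1.3.0, HISAT2 2.0.4, cutadapt 1.10 and FastQC 0.10.1 are listed in the submitters' processing notes, with no role stated. Not given in the sources used here are the build, the gene annotation and any use of strand. The values did not yield read counts (34.6% of low values lay within 0.1 of a whole multiple of the row's lowest value), so no interval for counting error was computed.

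All mRNA genes with a mean of at least 0.5 FPKM were tested on log2(FPKM + 1) with limma 3.58.1 (R 4.3.3), two-sided, with a trend in the prior variance, no replicate block and Benjamini-Hochberg adjustment at 0.05. The ratio was tested with scipy 1.17.1. The script was tested on simulated data. Alternatives changed the pseudocount, the filter, the scaling, the prior, the block and the samples.

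All members are named, as are those called genes of the other lists that carry a name in the reference. Genes that the text singles out for 1 sample's value were chosen after their values were seen. Members and lists were chosen with earlier results of these data known. Symbols were paired with identifiers by hand, and some pairings and names were corrected against the reference after the values had been opened. Of 44 identifiers, 31, among them all 8 members, had 1 RefSeq gene (ASM3414082v1) of that name on the same chromosome, and all 47 pairs on 1 chromosome stood in the same order. Other genes, called ones included, are given by locus or only within counts and ranges.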

Additional observations from a re-analysis of the deposited data

How the results depend on the processing

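The rise of PDIL2-3 passed under all 14 alternatives to the test (limma adjusted p between 0.00043 and 0.013), and the fall of PDIL1-1 under 13 of them. Quantile normalization gave PDIL1-1 a log2 fold change of 0.01; the cause was not tested. The number of members lower at high temperature was 1 to 2 when single samples were left out, with 2 without normal temperature sample 3. The number of mRNA genes higher was 2222, and 1433 with a minimum mean of 2 FPKM, where fewer genes were tested. The summed FPKM of the members was lower at high temperature by more on the deposited values than after scaling, where the difference was -72.3 FPKM (trimmed-mean scaling) and -55.7 FPKM (without the 100 most abundant genes). The log2 ratio of PDIL2-3 to PDIL1-1 differed by 0.70 to 0.74 under the 9 alternatives chosen at the start and by 0.53 after quantile normalization, which is no single factor per sample and was added after seeing the data. Of 316 gene values under alternatives, 293 kept their direction and side of the threshold or, where neither value passed, stayed uncalled. Alternatives to the glutelin ratio were chosen after seeing the data, and its difference lay between 54.3 and 64.0.

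No pairing of the samples by the replicate numbers in the titles was detected. Deviations from the group means of samples with the same number correlated at -0.0171, -0.00275 and 0.00389, and no sample correlated best with its own number. Such correlations cannot show whether samples of the same number were handled together. With the replicate block, 1657 mRNA genes were higher and 2910 lower, PDIL1-1 and PDIL2-3 passed (limma adjusted p = 0.014 and 0.013), and IRE1 and bZIP60 did not (limma adjusted p = 0.099 and 0.077). The ratio of PDIL2-3 to PDIL1-1 differed by 0.72 with the replicate block, where 3 pairs allow no exact p under 0.25. Depth is unknown, which limits what the levels of PDIL1-2 and PDIL1-3, near or under 1 FPKM, can show.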
